A study of Mus musculus with 2 samples.

Results

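The genes of the mitochondrial genome are the 37 genes whose GENCODE M21 symbol starts with mt-, of 55487 genes in the deposited count table. They comprise 13 protein-coding genes, 2 rRNA genes and 22 tRNA genes, and all 37 were annotated on chromosome M of the mouse genome build GRCm38 and were present in the table. The data came from 2 RNA sequencing libraries of mouse Langerhans cells, the resident dendritic cells of the epidermis, with the genotype HTR2A-/-, which lack the serotonin 2A receptor. Per the labels' protocols, ears were digested enzymatically, CD207+ and MHC II+ cells were sorted, and the sorted cells were kept for 24 hours with the Toll-like receptor agonist imiquimod and an agent named a-CD40L before RNA was taken. Both libraries carry the same genotype and both agents and form a single group, so no genotype or treatment was compared. The age, the number of mice, the way the allele was made and whether the libraries came from different mice are not given in the labels. Cells with an intact receptor gene, or without the agents, were not analysed here. The column called library 2 carries that number in its name, and the other, without a number, is called library 1.

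Library 1 held 69925160 counts and library 2 held 42264685. Htr2a itself had 77 counts in library 1 and 117 in library 2, and where the deletion lies within the gene is not given in the labels, so these counts do not check the genotype. All 7 Langerhans cell markers were detected in both libraries, and their levels, as counts scaled to library totals per 1e6 counts (CPM), summed to 20722 CPM in library 1 and 11392 CPM in library 2. Cd207, which encodes langerin, had 1125 CPM in library 1 and 1052 CPM in library 2. All 8 keratinocyte markers were detected as well, with a sum of 4123 CPM (library 1) and 14397 CPM (library 2), as were the 5 T cell markers (187 and 114 CPM), the 4 fibroblast markers (105 and 34.2 CPM) and the 5 skeletal muscle markers (9.18 and 19.7 CPM).

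The mitochondrial genome is a compact circle that encodes core subunits of the respiratory chain and the ATP synthase, together with the rRNAs and tRNAs needed to translate them inside the organelle. Each strand is transcribed into long polycistronic RNAs. Most tRNA genes lie between the longer genes, and their excision by RNase P at the 5′ end and by ELAC2 at the 3′ end frees the rRNAs and mRNAs. All other proteins of the organelle, including the remaining respiratory chain subunits and the RNA polymerase, are encoded in the nucleus and imported. In the annotated map 12 of 36 gene junctions had 0 bases between neighbours, 9 overlapped, and the longest of the other 15 gaps was 32 bases.

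The junction of both rRNA genes shows this arrangement. It is printed 5′ to 3′ from the GENCODE M21 transcripts on GRCm38, chrM:1005-1113, plus strand, with mt-Tv, the valine tRNA gene, in capitals between the end of mt-Rnr1 and the start of mt-Rnr2.
mt-Rnr1/mt-Tv/mt-Rnr2: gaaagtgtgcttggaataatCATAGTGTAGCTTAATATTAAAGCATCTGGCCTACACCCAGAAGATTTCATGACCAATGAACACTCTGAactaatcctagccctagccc
Neighbouring protein-coding genes also share bases. The next lines give the overlap of mt-Atp8 and mt-Atp6 (chrM:7912-7984) and that of mt-Nd4l and mt-Nd4 (chrM:10152-10188), both on the plus strand, with the bases that belong to both genes in capitals.
mt-Atp8/mt-Atp6: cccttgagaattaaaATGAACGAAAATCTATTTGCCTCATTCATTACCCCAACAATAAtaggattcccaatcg
mt-Nd4l/mt-Nd4: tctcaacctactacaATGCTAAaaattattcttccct
The first overlap spans 43 bases and the second 7 bases, and reads within them cannot be assigned to either gene.

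Mitochondrial genes took 11.0% of all counts in library 1 (95% exact binomial interval 10.99 to 11.01%) and 11.8% in library 2 (11.83 to 11.85%), a mean of 11.4% ± 0.594 (SD, n = 2 libraries). The difference between the libraries exceeded counting error, and the intervals cover counting error only. In bulk samples, fewer cells of a type and less RNA per cell cannot be told apart. The rRNA genes accounted for nearly all of it, with 91.2% of the mitochondrial counts in library 1 and 92.7% in library 2. The 13 protein-coding genes held 8.76% and 7.21% of the mitochondrial counts, and the 22 tRNA genes 0.0826% and 0.0835%. Relative to the whole library, the protein-coding genes took 0.963% of the counts in library 1 and 0.854% in library 2. In each library 6 of the 37 genes were among the 100 most counted genes.

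Levels between genes were compared as CPM per kb of annotated gene length. On this scale the median rRNA gene stood 62.6-fold above the median protein-coding gene in library 1 and 90.1-fold above it in library 2. The median protein-coding gene stood 11.4-fold and 7.96-fold above the median tRNA gene. The plot of levels along the genome shows the rRNA genes far above all others, and 12 of the 13 protein-coding genes above every tRNA gene in both libraries. mt-Nd3 was the exception, with a level inside the range of the tRNA genes as counted. With the counts of its near-identical nuclear copy added, as described below, it stood at 156 CPM per kb in library 1, above every tRNA gene. In library 2 it stood at 153 CPM per kb, still inside their range.

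**Figure D1:**
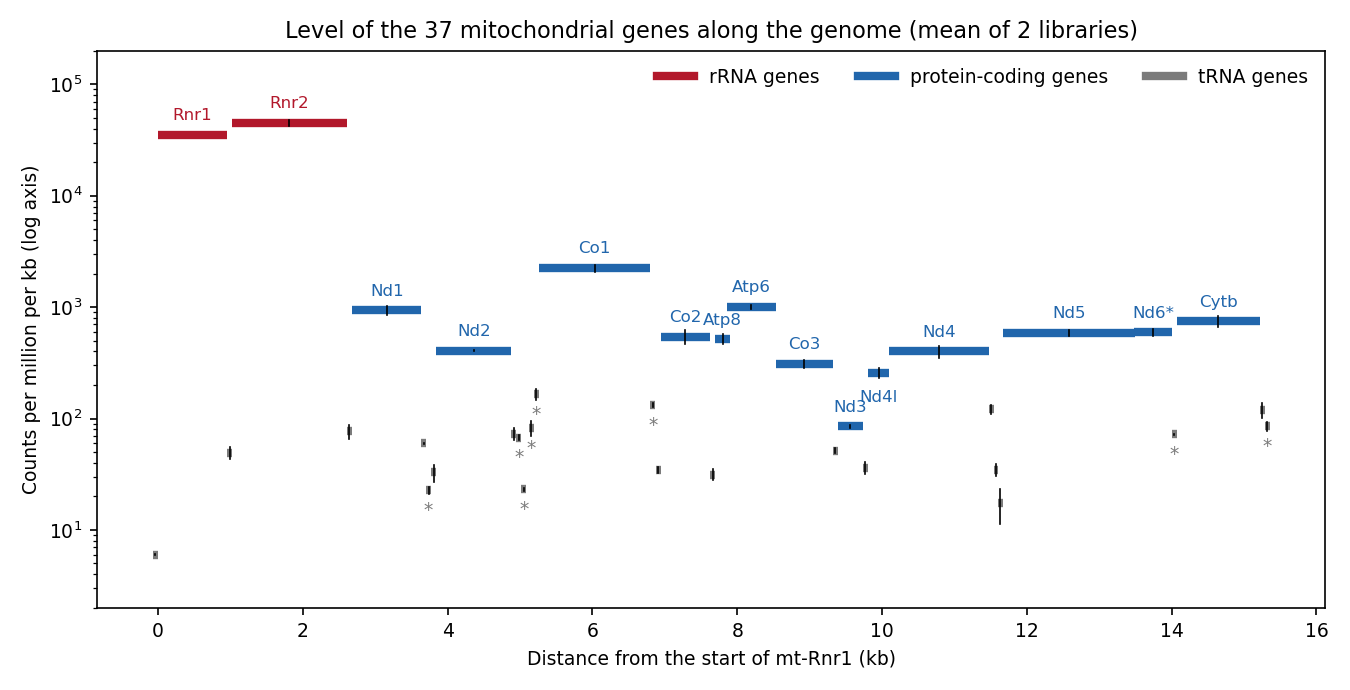
Mean level over both libraries of each of the 37 mitochondrial genes in CPM per kb of gene length (log axis) against the distance from the start of mt-Rnr1 in kb, with each bar as long as its gene, a vertical line from one library's value to the other's, and an asterisk on light-strand genes. In the 2 libraries the rRNA genes lie between 35276.7 and 48101 CPM per kb, the protein-coding genes between 82.5 and 2412, and the tRNA genes between 5.92 and 185.

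The rRNA genes, mt-Rnr1 (12S, small ribosomal subunit) and mt-Rnr2 (16S, large subunit), lie next to each other near the start of the heavy-strand transcript, separated by mt-Tv. mt-Rnr2 had 4651123 counts in library 1 and 3216165 in library 2 and was the most counted gene of the table in both. mt-Rnr1 had 2362124 and 1423864 counts and ranked as number 3 in both libraries. Per kb, mt-Rnr2 stood at 42045 CPM (library 1) and 48101 CPM (library 2), against 35372.5 and 35276.7 CPM for mt-Rnr1. The ratio of mt-Rnr2 to mt-Rnr1 was therefore 1.19 in library 1 and 1.36 in library 2, with mt-Rnr2 higher in both. mt-Tv, which shares a primary transcript with them, had 207 and 163 counts, and mt-Rnr2 exceeded it 980-fold per kb in library 1 and 861-fold in library 2. Per the labels' protocols the libraries were made from total RNA with a SMARTer stranded kit for small inputs, whose protocol is not designed for short RNAs, and how far rRNA was removed is not given in the sources used here. The shares of rRNA and tRNA are therefore shares of the sequenced library, not of the RNA in the cell.

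A stretch of nuclear DNA that matches the mitochondrial genome bears on at least 7 of the 13 protein-coding genes. Alignment of the annotated transcripts placed 7 unprocessed pseudogenes on chr1:24611535-24616197, minus strand, opposite chrM:6390-11042, with at least 99% identity over at least 90% of each pseudogene. They lie in the same order as their mitochondrial counterparts over 4663 and 4653 bases, and the offset between the coordinates shifts by only 1 base across the stretch. mt-Co2, mt-Atp6, mt-Co3, mt-Nd3 and mt-Nd4l are each matched over at least 98.99% of their length, mt-Nd4 over 63.6% and mt-Co1 over its last 31.3%. A read from the matched bases cannot be placed on either locus by its sequence, except where it spans one of the few differing bases. The levels of these 7 genes are therefore uncertain. mt-Atp8 also lies within chrM:6390-11042 and shares 43 bases with mt-Atp6, but no near-identical copy of it is annotated on chromosome 1. How far its level is affected was not tested. How multiply aligned reads were counted is not given in the sources used here.

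The differences between the copies are shown for mt-Co1 and mt-Nd3, since those pairs have any at all within the aligned bases. Each sequence is given 5′ to 3′ in the sense of the gene, with the differing base in capitals, from GENCODE M21 on GRCm38 at chrM:6390-6423 (plus strand), chr1:24616155-24616188 (minus strand), chr2:22588552-22588585 (minus strand), chrM:9459-9491 (plus strand) and chr1:24613087-24613119 (minus strand).
mt-Co1: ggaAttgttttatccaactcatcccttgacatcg
Gm29216: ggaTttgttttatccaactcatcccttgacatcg
Gm13340: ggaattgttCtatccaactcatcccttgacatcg
mt-Nd3: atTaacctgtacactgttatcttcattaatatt
Gm28438: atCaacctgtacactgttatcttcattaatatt
Counted from 1 at the first base of the mitochondrial gene, Gm29216 differs from mt-Co1 by A1066T, Gm13340 on chromosome 2 differs from it by T1072C within these bases, and Gm28438 differs from mt-Nd3 by T3C.

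The 7 chromosome 1 pseudogenes drew many counts. Their mitochondrial partners together held 409844 counts in library 1 and 210953 in library 2, against 241923 and 118925 on the pseudogenes, which is 37.1% and 36.1% of both. mt-Atp6 had 49950 counts in library 1 and 27539 in library 2, against 81367 and 43867 on Gm10925. mt-Co2 had 29928 and 13359 counts, against 41037 and 17124 on Gm28661. In these pairs, and in those of mt-Co3 with Gm28437 and mt-Nd4l with Gm10222, the nuclear copy held more counts than the mitochondrial gene in both libraries. mt-Nd3 had 2008 and 1299 counts, against 1778 and 949 on Gm28438, and here the mitochondrial gene held more in both. Over the partly matched genes, Gm29216 took 20.3% and 20.01% of its counts together with mt-Co1, and Gm28439 took 27.2% and 25.7% together with mt-Nd4.

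The other nuclear copies drew few counts. The 37 further nuclear genes that aligned to a mitochondrial gene, with 69.8 to 97.6% identity, had 0 to 2811 counts in library 1 and 0 to 1384 in library 2. The highest of them was Gm13340 on chromosome 2, with 97.6% identity to mt-Co1, which held 1.07% of the counts of that pair in library 1 and 1.01% in library 2. Its chromosome 2 neighbour Gm13341, 95.9% identical to mt-Co2, held 5.90% and 4.90%. Where the share lies between the loci was not tested further. Levels of the 7 genes with a near-identical annotated chromosome 1 copy are given below both as counted and with the counts of that copy added.

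**Figure D2:**
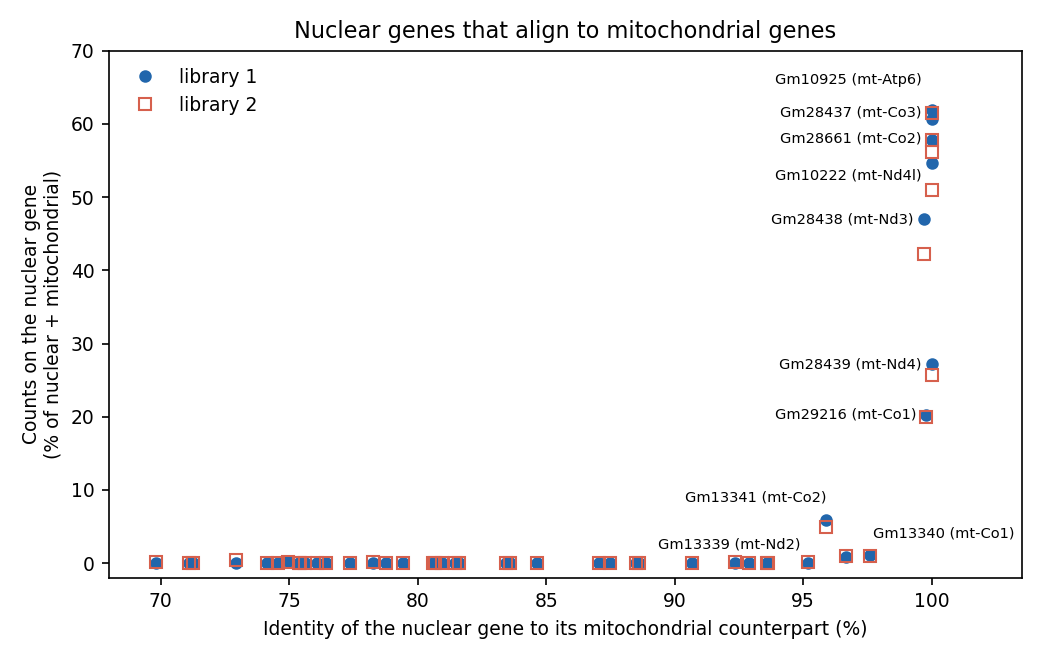
Each nuclear gene that aligned to a mitochondrial gene, by its percent identity to it and by the percent of their joint counts that the nuclear gene held, in library 1 (filled) and library 2 (open). The near-identical chromosome 1 copies, at 99% identity or more, hold between 20.01 and 61.96%, and no other nuclear gene holds more than 5.90%.

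Among the protein-coding genes, mt-Co1, the catalytic core subunit of cytochrome c oxidase (complex IV), was the highest. It had 260614 counts in library 1 and 135960 in library 2, which was 38.7% and 37.7% of all counts on the 13 genes. Per kb it stood at 2412 CPM and 2082 CPM. The other complex IV subunits were lower, with 626 and 462 CPM per kb for mt-Co2, which carries the site that takes electrons from cytochrome c, and 336 and 281 CPM per kb for mt-Co3. With the chromosome 1 copies added, mt-Co1 stood at 3025 and 2603 CPM per kb, mt-Co2 at 1484 and 1054 and mt-Co3 at 854 and 668, and the order of the 3 subunits was the same.

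The ATP synthase (complex V) subunits are encoded by mt-Atp6, which forms part of the proton channel, and mt-Atp8. mt-Atp6 had 1049 CPM per kb in library 1 and 957 CPM per kb in library 2, against 570 and 463 CPM per kb for mt-Atp8. The ratio of mt-Atp6 to mt-Atp8 was 1.84 and 2.07 as counted and 4.84 and 5.36 with the counts of Gm10925 added to mt-Atp6. No annotated nuclear copy of mt-Atp8 was found in the stretch between Gm28661 and Gm10925, so nothing could be added to it. The ratio with copies therefore adds counts to mt-Atp6 only, and any reads of mt-Atp8 placed on unannotated chromosome 1 sequence would be missed. With the copies added, mt-Atp6 reached 2758 and 2481 CPM per kb, and mt-Co1 exceeded it 1.10-fold and 1.05-fold, against 2.30-fold and 2.18-fold as counted.

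Complex I, which takes electrons from NADH, has 7 of the 13 genes, and they spanned the widest range as a ratio of the highest to the lowest level, while in CPM per kb complex IV spanned more. mt-Nd1 had 57276 counts in library 1 and 41435 in library 2, or 856 and 1024 CPM per kb, the highest of the complex. mt-Nd5 stood at 618 and 555 CPM per kb, mt-Nd2 at 412 and 402, mt-Nd4 at 447 and 353 and mt-Nd4l at 282 and 233. mt-Nd3 was the lowest of all 13 genes, with 82.5 and 88.3 CPM per kb, so that mt-Co1 exceeded it 29.2-fold in library 1 and 23.6-fold in library 2. With copies added mt-Nd3 stood at 156 and 153 CPM per kb and was still the lowest, 19.4-fold and 17.03-fold below mt-Co1. mt-Nd4l and mt-Nd4, which are translated from a shared mRNA, differed as counted, with mt-Nd4 1.58-fold and 1.51-fold above mt-Nd4l. With the copies added the ratio was 0.987 and 0.999.

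Complex III has a single mitochondrial gene, mt-Cytb, which encodes cytochrome b. It had 66487 counts in library 1 and 32233 in library 2, or 831 and 667 CPM per kb, and has no near-identical annotated nuclear copy. By complex, the complex IV genes held 45.9% and 43.9% of the protein-coding counts, the complex I genes 35.6% and 38.4%, mt-Cytb 9.87% and 8.93%, and the complex V genes 8.62% and 8.73%. Adding the copies put the complex V share at 15.2% and 15.7%, and the complex I share at 28.9% and 31.2%.

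The order of the 13 genes was close to the same in both libraries. By mean level it ran mt-Co1, mt-Atp6, mt-Nd1, mt-Cytb, mt-Nd6, mt-Nd5, mt-Co2, mt-Atp8, mt-Nd2, mt-Nd4, mt-Co3, mt-Nd4l and mt-Nd3. Of the 12 pairs of neighbours, 7 kept their order in both libraries with exact Poisson intervals that did not overlap. The 5 others, mt-Atp6 with mt-Nd1, mt-Nd6 with mt-Nd5, mt-Nd5 with mt-Co2, mt-Co2 with mt-Atp8 and mt-Nd2 with mt-Nd4, could not be told apart. With the copies added, mt-Co1, mt-Atp6 and mt-Co2 led in both libraries and 6 of 12 neighbouring pairs were told apart. Across the 13 genes the log2 levels of the libraries correlated with a Pearson r of 0.986, which describes genes that share a genome and a transcript, not independent replicates.

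**Figure D3:**
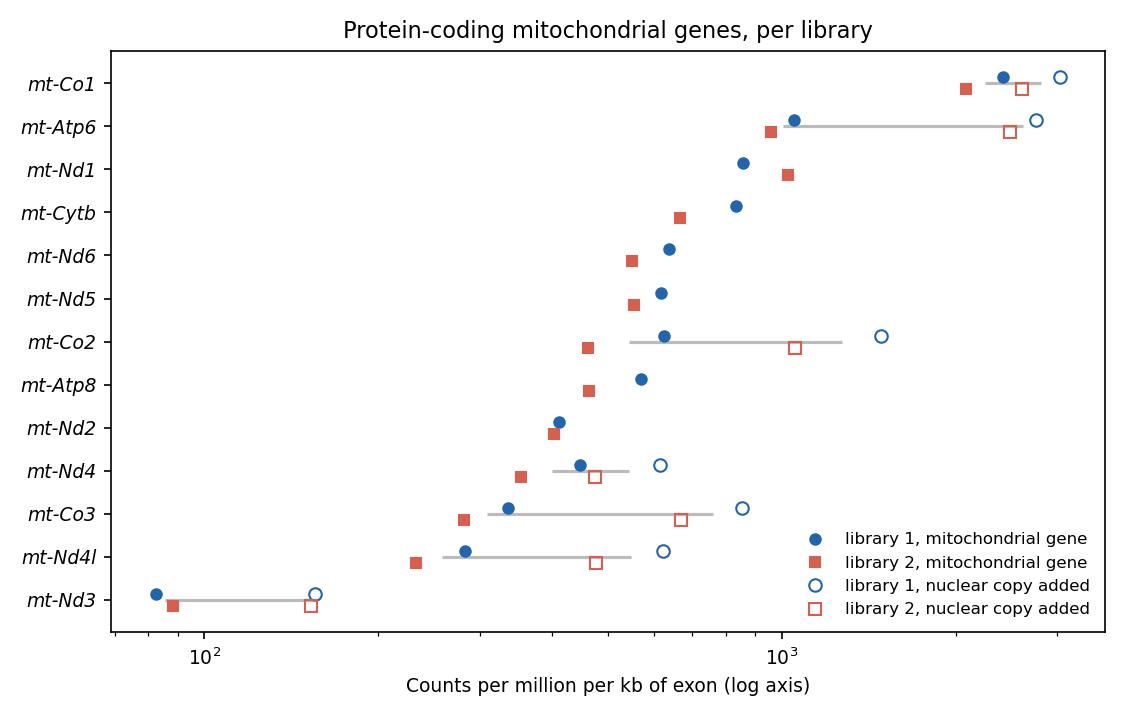
Level in CPM per kb of each of the 13 protein-coding genes in library 1 and library 2, as counted (filled) and with the counts of the near-identical chromosome 1 copy added (open), on a log axis, with grey lines joining the means over both libraries. mt-Co1 leads and mt-Nd3 is lowest either way, while mt-Atp6, mt-Co2 and mt-Co3 move up when the copies are added.

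Levels along the heavy-strand transcript followed no steady gradient. Over its 12 protein-coding genes, Spearman's rho of the level per kb with the gene order was -0.30 in library 1 and -0.34 in library 2, given as a description of 12 genes that share the same libraries. Near its start, mt-Nd1 stood 2.08-fold above mt-Nd2 in library 1 and 2.55-fold in library 2. mt-Co1, further on, stood above both, and mt-Atp6 was 3.12-fold and 3.40-fold above mt-Co3, which follows it directly. mt-Cytb, the last, stood above 8 of the others in library 1 and in library 2 as counted. With the copies added it stood above 6 of them in both. There mt-Co2 also lay above it, as did mt-Co3 by its values, though mt-Co3 and mt-Cytb could not be told apart.

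mt-Nd6, a complex I subunit, is the single protein-coding gene of the light-strand transcript, next to mt-Nd5 on the other strand. It had 23124 counts in library 1 and 12067 in library 2, or 637 and 550 CPM per kb. Its level was 1.03-fold that of mt-Nd5 in library 1 and 0.991-fold in library 2, and 0.767-fold and 0.825-fold that of mt-Cytb. Against the median heavy-strand protein-coding gene it stood at 1.07 and 1.19 as counted, a mean of 1.13, and with the copies added the mean was 0.889, so on which side of that median it lies depends on the copies. Its sequence has the reverse base bias of the 12 heavy-strand protein-coding genes. G made up 28.1% of mt-Nd6, against a median of 11.0% over those 12 genes (5.88 to 16.1%), and C made up 5.97%, against a median of 26.0%. The 8 light-strand tRNA genes also had more G than C, with medians of 23.0% and 13.9%. Whether the counting used the strand is not given in the sources used here. If it did not, reads of RNA antisense to mt-Nd6 cannot be told apart from its own.

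The messages also differ in how they end. The annotated lengths of mt-Co3, mt-Nd4 and mt-Cytb are not multiples of 3, and each ends in a T that becomes a full stop codon only when the mRNA is polyadenylated. Their last 30 bases are given below 5′ to 3′ on the plus strand (chrM:9361-9390, chrM:11515-11544 and chrM:15259-15288), with that base in capitals.
mt-Co3: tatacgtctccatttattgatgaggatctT
mt-Nd4: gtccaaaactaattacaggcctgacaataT
mt-Cytb: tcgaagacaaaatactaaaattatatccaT
Of the 13 genes, 9 start with ATG. These 3 genes fell in different places of the order, with mt-Cytb as number 4, mt-Nd4 as number 10 and mt-Co3 as number 11 as counted. With the copies added, mt-Co3 was number 5 and mt-Cytb number 6 and these could not be told apart.

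The 22 tRNA genes had 29 to 685 counts in library 1 and 17 to 524 in library 2, so counting error weighs more on them than on any other class. Their median level was 54.1 CPM per kb in library 1 and 58.1 CPM per kb in library 2. mt-Ty, for tyrosine, was the highest in both, with 146 and 185 CPM per kb. mt-Ts1 (a serine tRNA), mt-Th (histidine) and mt-Tt (threonine) followed by mean level, with 126 and 138, 133 and 109, and 101 and 138 CPM per kb. mt-Tf (phenylalanine), the first gene of the heavy-strand transcript, was the lowest in both, with 6.10 and 5.92 CPM per kb. mt-Ty exceeded it 24.0-fold in library 1 and 31.3-fold in library 2. Neighbours in the order could not be told apart in any of the 21 pairs, while the levels of the libraries correlated across the 22 genes with a Pearson r of 0.956 on the log2 scale, again as a description.

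The tRNA genes at both ends of this range are printed in the sense of the tRNA, 5′ to 3′, with the anticodon in capitals. Positions on GRCm38 are chrM:5260-5326 (minus strand) for mt-Ty, chrM:6870-6938 (minus strand) for mt-Ts1, chrM:11546-11612 for mt-Th, chrM:15289-15355 for mt-Tt, chrM:11671-11741 for mt-Tl2 and chrM:1-68 for mt-Tf, the last 4 on the plus strand.
mt-Ty: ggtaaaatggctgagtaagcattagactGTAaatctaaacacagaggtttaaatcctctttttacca
mt-Ts1: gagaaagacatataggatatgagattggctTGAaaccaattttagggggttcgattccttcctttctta
mt-Th: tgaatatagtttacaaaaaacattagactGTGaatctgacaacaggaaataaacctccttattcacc
mt-Tt: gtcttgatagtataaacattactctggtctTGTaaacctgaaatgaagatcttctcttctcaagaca
mt-Tl2: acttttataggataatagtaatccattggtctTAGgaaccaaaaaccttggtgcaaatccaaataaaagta
mt-Tf: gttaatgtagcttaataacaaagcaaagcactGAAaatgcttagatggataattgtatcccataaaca

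By strand, the 8 light-strand tRNA genes had a median of 70.3 CPM per kb in library 1 and 74.8 in library 2, against 40.8 and 47.1 CPM per kb for the 14 heavy-strand tRNA genes. The ranges overlapped. Light-strand genes ran from 24.0 to 146 CPM per kb in library 1 and from 20.99 to 185 in library 2. Heavy-strand genes ran from 6.10 to 133 and from 5.92 to 138. Since it is not given whether the counting used the strand, RNA of the opposite strand may add to the counts of either set. Of the tRNA genes, 5 lie within the stretch spanned by the chromosome 1 copies, where no near-identical annotated tRNA copy was found. Among them, mt-Td, mt-Tk, mt-Tg and mt-Tr are heavy-strand genes and mt-Ts1 is a light-strand gene. Any of their reads placed on unannotated chromosome 1 sequence would be missed. How far this affects the medians by strand was not tested. These 5 tRNA genes had 127 to 610 counts in library 1 and 96 to 402 in library 2. Mature tRNAs are short and heavily modified, and counts on these genes can also come from unprocessed transcripts that run across them; which of these the counts represent was not tested.

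**Figure D4:**
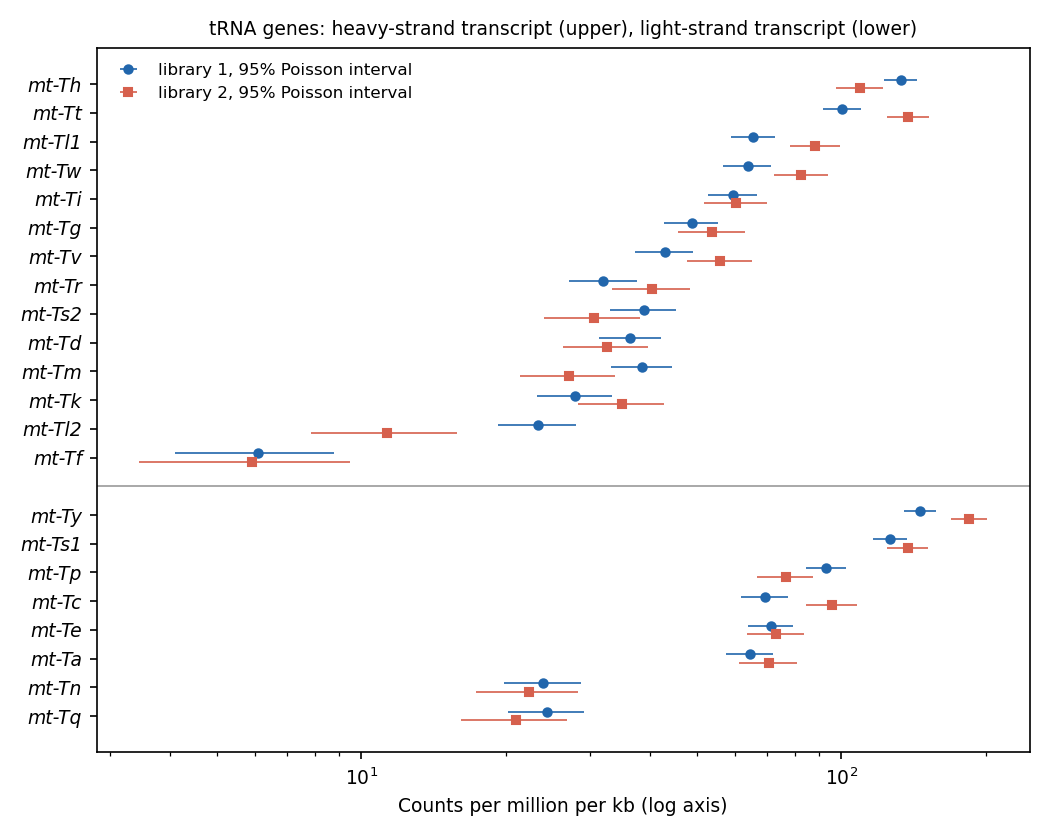
Level in CPM per kb of each of the 22 tRNA genes in library 1 and library 2 with exact 95% Poisson intervals, with the 14 heavy-strand genes above the 8 light-strand genes. mt-Ty is highest at 146 and 185 CPM per kb, mt-Tf is lowest at 6.10 and 5.92, and most intervals overlap those of their neighbours.

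The libraries were then set against each other to show how far samples of this group differed. With 1 library on each side there is no replicate check and no p-value. The filter, a level of 1 CPM or more in either library, left 30373 genes. After scaling to total counts, 5.48% of them were past 2-fold on the side of library 1 (higher there) and 38.6% were past it on the other side, and the median log2 ratio of library 1 over library 2 was -0.65. Of the 37 mitochondrial genes, 36 passed this filter, all but mt-Tf, and mt-Tl2 passed through library 1 alone. Among the 36, mt-Tl2 (a leucine tRNA) was at least 2-fold apart, with 116 counts in library 1 and 34 in library 2, or 23.4 CPM per kb (95% Poisson interval 19.3 to 28.0) and 11.3 CPM per kb (7.85 to 15.8). With TMM factors, under which the same shares were 12.6% and 24.5%, mt-Tm, the methionine tRNA, joined it at a log2 ratio of 1.00. With DESeq2 size factors, with shares of 14.9% and 22.3%, mt-Co2 joined them as well.

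The median log2 ratio of the mitochondrial genes was 0.07 on total counts, and it differed by class. The protein-coding genes had a median of 0.21, with 11 of 13 above 0, spanning -0.26 for mt-Nd1 to 0.44 for mt-Co2. The rRNA genes were at -0.19 (mt-Rnr2) and 0.00 (mt-Rnr1), and the tRNA genes had a median of -0.12, with 8 of 21 above 0. All 36 lay above the median of all tested genes. Against the 1559 other genes whose mean reached 100 CPM, which had a median of 0.18, 14 of the 36 lay above that median, 8 of them protein-coding. With TMM factors every ratio moves up by about 0.50, the all-gene median is -0.15 and all 36 are above 0, so the sign of the rRNA and tRNA medians depends on the scaling, while that of the protein-coding genes does not.

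**Figure D5:**
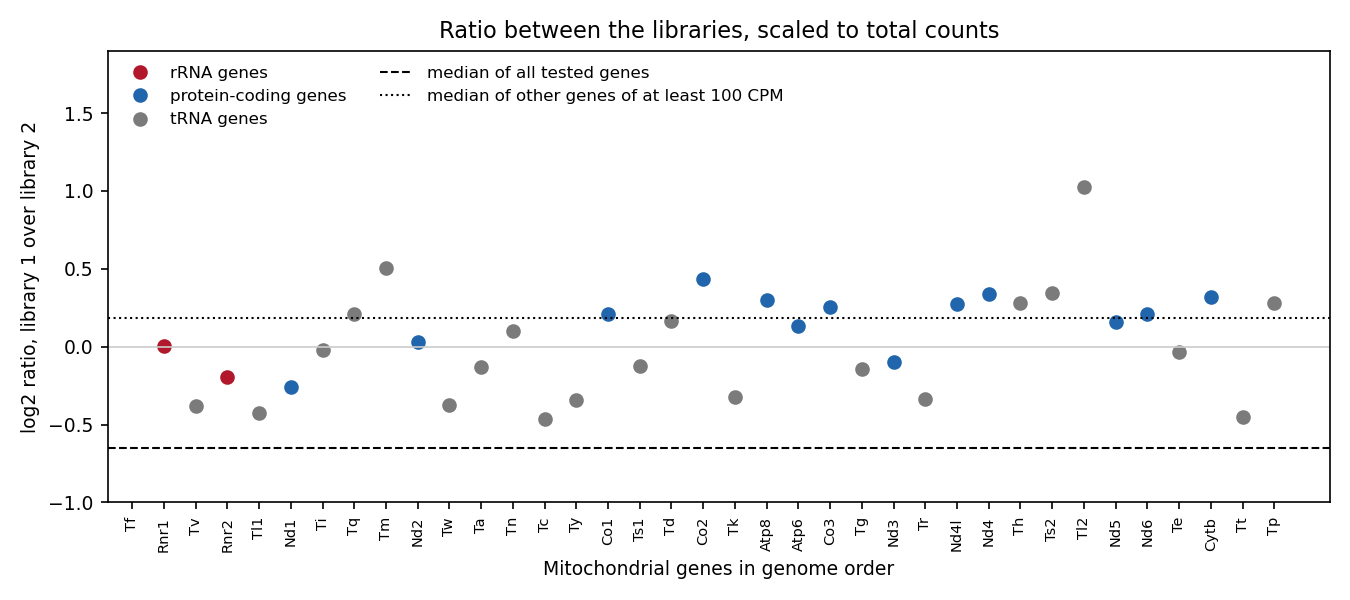
Log2 ratio of library 1 over library 2 (counts scaled to library totals) for each mitochondrial gene that passed the filter, in genome order and coloured by class, with the medians of all tested genes (dashed, -0.65) and of other genes of at least 100 CPM (dotted, 0.18). The protein-coding genes lie between -0.26 and 0.44, mt-Tl2 alone is past 2-fold, and mt-Tf, which did not pass, has no point.

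Other measures moved between the libraries too. The keratinocyte marker sum was lower in library 1 (4123 CPM) than in library 2 (14397 CPM), with 7 of 8 markers at least 2-fold lower in library 1. The Langerhans cell marker sum was higher in library 1 (20722 CPM) than in library 2 (11392 CPM), with 5 of 7 markers higher there, 2 lower (Cdh1 and Epcam) and 1, Mfge8, past 2-fold, while Cd207 had a log2 ratio of 0.10. Of the T cell markers, 4 of 5 were past 2-fold on the side of library 1 and 1 on the other side, and of the fibroblast markers 3 of 4 and 1. Among all tested genes, 38.6% were past 2-fold on the side of library 2 and 5.48% on the side of library 1. Of the skeletal muscle markers, 2 of 5 were past 2-fold on the side of library 2, which is near that background of 38.6%. With 5 genes, this count cannot be told apart from the background. The part of these marker sets in the differences of the mitochondrial genes was not tested.

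The nuclear partners of these genes had far lower levels per kb. Gene length was the union of all annotated exons, which for a nuclear gene can exceed the length of its main mRNA and lower its level per kb. How much this adds to the folds below was not tested. Across 76 nuclear genes for subunits and regulators of the respiratory chain and ATP synthase, the median mitochondrial protein-coding gene exceeded the median nuclear one 37.9-fold per kb in library 1 and 26.9-fold in library 2. Together the nuclear genes summed to 3056 CPM (library 1) and 3447 CPM (library 2). Their median log2 ratio was -0.11, with 29 above 0 and 47 below, and with TMM factors it was 0.39, with 68 above 0. On total counts none was at least 2-fold higher and Ndufb2, a complex I subunit, was at least 2-fold lower in library 1 (462 and 566 counts, log2 ratio -1.02). With TMM factors that call ended (-0.52), none was at least 2-fold lower, and 3 of the 76 were at least 2-fold higher. These were the complex I subunits Ndufc2 (1.06) and Ndufa3 (1.19) and the complex V subunit Atp5k (1.15). Of them, Ndufa3 and Atp5k are named after their values were seen. Among all tested genes, 5.48% were at least 2-fold higher and 38.6% lower on total counts, and 12.6% and 24.5% with TMM factors. The shares of the 76 genes were below these in both directions under both scalings. By complex, the median log2 ratios were 0.03 for the 36 genes of complex I, 0.08 for the 4 of complex II, -0.19 for the 9 of complex III, -0.18 for the 11 of complex IV and -0.14 for the 16 of complex V.

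The nuclear genes named here, among the highest of their complexes, ran from 26.7 CPM per kb (Sdhd, library 2) to 111 CPM per kb (Atpif1, library 1). In complex IV, Cox4i1, a subunit that regulates the oxidase, had 57.5 CPM per kb in library 1 and 75.7 in library 2, followed by Cox6a1 (47.2 and 62.7) and Cox8a (56.9 and 51.8). In complex V, Atpif1, the inhibitor of ATP hydrolysis by the synthase, had 111 and 96.9 CPM per kb, Atp5b, the catalytic beta subunit, 61.6 and 91.0, and Atp5h 68.9 and 78.0. In complex III, Uqcrb had 62.7 and 71.6 CPM per kb and the iron-sulfur subunit Uqcrfs1 30.2 and 39.9. In complex I, Ndufb9 had 37.5 and 45.6 CPM per kb. Complex II has no mitochondrial gene, and its membrane anchor Sdhd had 27.5 and 26.7 CPM per kb.

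Genes for the expression of the mitochondrial genome were detected at low levels. Of 14 genes for its transcription and replication, Polg, the catalytic subunit of the DNA polymerase, was the highest, with 7.83 CPM per kb in library 1 and 6.31 in library 2. Tfam, which packages the DNA and opens its promoters, had 2.91 and 4.19, and Polrmt, the RNA polymerase, 2.68 and 3.61 CPM per kb. The median log2 ratio of the 14 was -0.53, none was at least 2-fold higher and 3 were at least 2-fold lower in library 1: Mterf4 (1.21 and 2.50 CPM per kb), Mterf1a (0.823 and 2.24) and Mterf1b (0.585 and 1.47). Mterf1b passed the filter through library 2 alone, where it is higher. With TMM factors none of these 3 passed 2-fold.

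Of 25 genes for processing, modification and decay of mitochondrial RNA, the highest were Grsf1, an RNA granule protein, with 15.4 CPM per kb in library 1 and 12.4 in library 2, Hsd17b10, a subunit of mitochondrial RNase P, with 8.77 and 10.4, and Elac2, the tRNA 3′ endonuclease, with 7.53 and 8.84. Of the 25, 1 was at least 2-fold higher in library 1, the rRNA methyltransferase gene Mrm2 (203 and 54 counts, log2 ratio 1.17). In the other direction 3 were at least 2-fold lower, namely the rRNA methyltransferase gene Mrm3 (173 and 322 counts, log2 ratio -1.62), Trmt10c, another RNase P subunit (797 and 1012 counts, -1.07), and Supv3l1, the helicase of the RNA degradosome (819 and 1011 counts, -1.03). Under TMM factors 4 of the 25 genes were at least 2-fold higher, near the 12.6% of all tested genes. In the other direction 1, Mrm3, was at least 2-fold lower, against 24.5% of all tested genes. On total counts the share past 2-fold in each of the 3 nuclear lists was below that of all tested genes in both directions. With 25 genes, the share higher in library 1 cannot be told apart from the background under either scaling.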

How the data were processed

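The values the authors deposited are raw counts, whole numbers for each Ensembl gene, in a column for each of the 2 libraries. Per the submitters' processing notes, the tools were HISAT2, StringTie, SAMtools and Trimmomatic and the build was GRCm38. The sources used here do not give the strand setting, the treatment of multiply aligned reads or the annotation used for counting. The 2 lines without an identifier (a blank and the column totals) were left out.

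Members, lists (12, with 144 nuclear genes) and alternatives were chosen with earlier results of these data known. Of the nuclear lists, the rule allowed naming the 3 highest genes per kb, the lowest detected and up to 3 with the largest fold past 2-fold in each direction. Symbols, positions and gene lengths came from GENCODE M21, which gave 55141 of 55487 genes a symbol. Counts were divided by library totals (CPM) and by gene length, taken as the union of all annotated exons of a gene. Nuclear copies were found with blastn 2.17.0 on the GENCODE transcripts. Ratios are log2 of library 1 over library 2 with a prior count of 1, over genes that reached 1 CPM in either library. TMM factors came from edgeR 4.0.16 and size factors from DESeq2 1.42.0 (R 4.3.3), and no count test was run because each side has 1 library. The ratio step was tested on simulated Poisson counts in which most genes were equal between the libraries. That setting lacks the spread and the shift between these libraries, so it checks the calculation only. Means are ± SD over n = 2 libraries. Exact 95% Poisson and binomial intervals treat counts as independent molecules, which amplified reads are not, and cover counting error only. Where nothing says that the libraries came from separate animals, their spread may be technical.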

Additional observations from a re-analysis of the deposited data

How the results depend on the processing

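No paired analysis was possible because both libraries belong to a single group. Leaving out each library in turn gave ranges of 11.0 to 11.8% for the mitochondrial share of all counts, 23.6 to 29.2 for the ratio of the highest to the lowest protein-coding gene per kb, 1.07 to 1.19 for mt-Nd6 over the median heavy-strand protein-coding gene, -0.34 to -0.30 for Spearman's rho with gene order, 0.0826 to 0.0835% for the tRNA share of mitochondrial counts and 1.19 to 1.36 for mt-Rnr2 over mt-Rnr1. Ratios between the libraries need both and could not be recomputed this way. With the chromosome 1 copies added, the highest-to-lowest ratio was 18.2 in place of 26.4, mt-Nd6 stood at 0.889 in place of 1.13 times the median heavy-strand gene, rho was -0.27 in place of -0.32 and the tRNA share was 0.0809%. Without division by length those 2 ratios were 117 and 0.633 and mt-Rnr2 over mt-Rnr1 was 2.11 in place of 1.28. Without the rRNA genes the mitochondrial share was 1.03% in place of 11.4%. The median log2 ratio of the protein-coding genes was 0.21, and 0.71 with TMM factors, 0.82 with DESeq2 size factors and 0.039 when scaled to their own total. That of the nuclear respiratory genes was -0.11, and 0.39 and 0.49 with the same factors, so its sign depends on the scaling. The members past 2-fold numbered 1, and 2 with TMM factors and 3 with DESeq2 size factors. With 2 libraries, leaving out either cannot move a mean beyond the SD, so those ranges say nothing about stability, and neither do the filters on low counts for the protein-coding genes, since all 13 pass each of them. Depth limits the tRNA genes most, with as few as 17 counts.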
